A study of Mus musculus with 12 samples.

Results

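The 10 genes described here, Grhl1, Grhl2, Ovol1, Ovol2, Esrp1, Esrp2, Ehf, Elf3, Klf5 and Spdef, encode transcription and splicing factors of epithelial cells. They were chosen by name, and all 10 are among the 16411 genes of the deposited count table and among the 13191 genes that passed the filter on low counts. The libraries were made from 6 mammary tumors and 6 pieces of benign mammary gland, all from untreated female mice on an FVB background. Every mouse of both groups carried the MMTV-Neu-NDL-YD5 transgene, an activated form of the rat homolog of HER2 whose MMTV promoter is active mainly in mammary epithelium. Benign tissue was mammary gland free of a visible tumor, taken far from any tumor, so it is not tissue of a mouse without the transgene. No mouse gave both a tumor and a benign sample, and the labels do not give the age of individual mice. Each sample was whole tissue, so fewer epithelial cells and less RNA per epithelial cell cannot be told apart in any level below.

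Epithelial cells hold together through cadherin and claudin junctions and carry a characteristic set of transcription and splicing factors. The Grainyhead-like factors Grhl1 and Grhl2 activate junction genes such as Cdh1 and Cldn4, and the zinc finger factors Ovol1 and Ovol2 repress genes of the mesenchymal state, including Zeb1. Esrp1 and Esrp2 are RNA-binding proteins that select the epithelial forms of exons in transcripts such as Fgfr2, Cd44, Ctnnd1 and Enah. Ehf, Elf3 and Spdef are ETS factors of epithelia, and Klf5 is a Krüppel-like factor of proliferating epithelial progenitors.

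Where the genes start is shown first for a member that rose, one that was not called and one that varied most between tumors. The RefSeq promoter table of GRCm38.p6 (mm10) holds 5 start sites for 4 of the 10 members, namely Grhl1, Elf3, Ovol2 and Spdef. The bases upstream of a start are printed 5′ to 3′ on the strand of the gene, without any base inside an annotated exon, and capitals mark motif matches on either strand.
Grhl1, plus strand, chr12:24572037-24572282: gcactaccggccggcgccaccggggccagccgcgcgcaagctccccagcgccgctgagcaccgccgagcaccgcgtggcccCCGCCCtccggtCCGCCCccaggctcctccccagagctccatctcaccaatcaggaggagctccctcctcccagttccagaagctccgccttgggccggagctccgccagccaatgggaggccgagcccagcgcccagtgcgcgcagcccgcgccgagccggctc
Elf3, minus strand, chr1:135258569-135258722: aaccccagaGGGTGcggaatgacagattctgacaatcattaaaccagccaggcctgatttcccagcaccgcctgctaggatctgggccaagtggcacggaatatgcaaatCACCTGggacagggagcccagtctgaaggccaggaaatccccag
Spdef, minus strand, chr17:27728956-27729201: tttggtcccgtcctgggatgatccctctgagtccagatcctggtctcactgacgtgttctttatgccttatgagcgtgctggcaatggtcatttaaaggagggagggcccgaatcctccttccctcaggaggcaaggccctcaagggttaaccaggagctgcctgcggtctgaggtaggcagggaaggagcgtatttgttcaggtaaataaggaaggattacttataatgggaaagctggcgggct

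The printed Grhl1 sequence was the richest in G and C, at 75.6% over its 250 bases upstream of the start, against 57.2% for Elf3, 52.8% for Spdef and a median of 52.4% over all 32851 promoters. It held a pair of GC boxes (GGGCGG, in 32.7% of all promoters), at 169 and 157 bases before the start. The Elf3 window held an E-box of the type bound by Snai and Zeb factors (CACCTG, in 17.2% of all promoters), 140 bases before the start, and the CACCC box (CACCC, in 52% of all promoters) at 241 and 7 bases, of which the second lies in an annotated exon and is not printed. The Spdef window held none of the motifs searched. The window of the other Grhl1 start (chr12:24580469-24580718), which is not printed, was 52% G and C. That window held no GC box, and held the CACCC box at 81 and 29 bases before the start. Neither the Grainyhead-like site AACCGGTT (0.116% of all promoters), nor its form AACNGGTT with 1 base free (1.79%), nor the Ovol site CCGTTA (2.18%), nor the ETS site CCGGAA (12%) was found in any of the 5 windows. AACCGGTT is also a case of AACNGGTT, and a match is a run of letters and not a measured binding site.

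Total counts per sample ranged from 5240853 to 8588567, and levels are given as CPM, counts scaled to a common library size with edgeR's TMM factors, with 3 counts worth 0.411 CPM at the mean library size. Tumors were compared with benign tissue by the two-sided quasi-likelihood test of edgeR across all 13191 genes, and a gene was called at a Benjamini-Hochberg adjusted p-value under 0.1. Erbb2, the gene homologous to the transgene, measured 44.8 to 73.7 CPM in the benign group and 1989 to 16634 CPM in tumors, so that no sample went against its label. Benign samples 3, 4 and 6 held skeletal muscle transcripts, whose 8 markers made up 4.63%, 2.73% and 6.74% of their counts, against 0.0362% or less in the other 9 samples.

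Of the 10 members, 8 were higher in tumors and 2, Ovol1 and Elf3, were not called. None was called lower (0 of 10), none was lower at an unadjusted p-value under 0.05 (0 of 10), and DESeq2 also gave 8 higher and 0 lower. Over all genes tested, 28.2% were called higher and 34.8% lower. The median log2 fold change was 1.78 over the 10 members and -0.06 over all genes tested. For 7 members every tumor exceeded every benign sample, which was the case for 14.7% of all genes tested. These calls are relative to all genes, and relative to 4 epithelial adhesion genes no member was called higher, as the last comparisons of the members show. Those 4 genes may themselves be controlled by members.

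**Figure D1:**
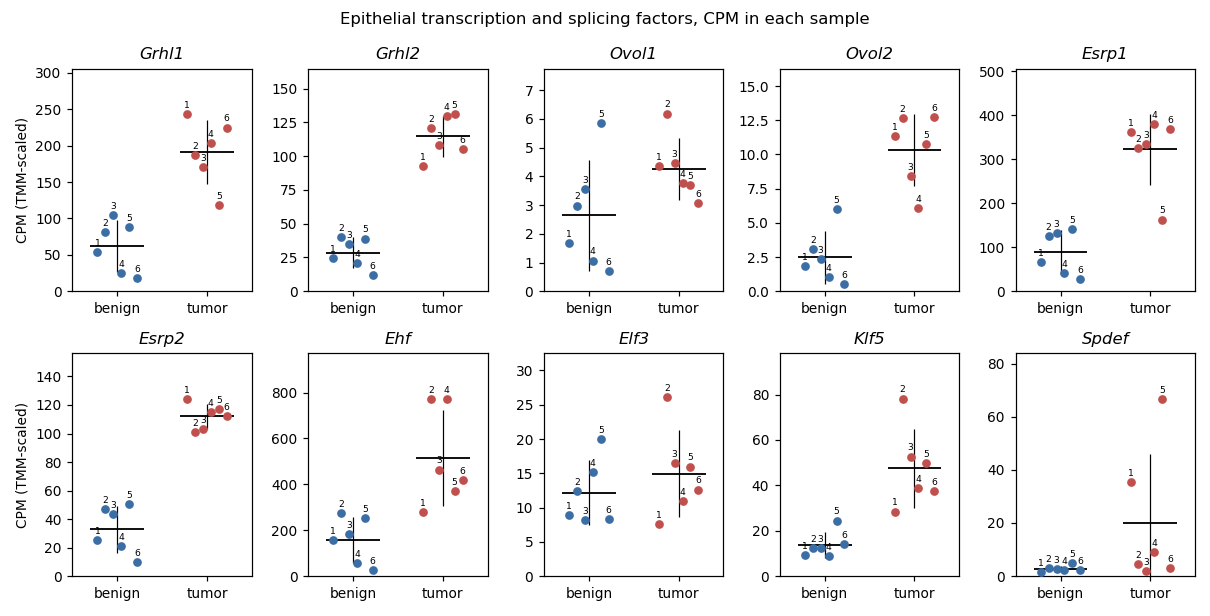
Each panel shows one member in CPM on the TMM scale (linear axis from 0), with benign samples 1 to 6 in blue and tumors 1 to 6 in red, the horizontal line at the mean and the vertical line covering 1 SD either way (cut at 0). Tumors lie apart from and above benign tissue in 7 panels, and the groups overlap for Ovol1, Elf3 and Spdef.

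The Grainyhead-like factors were higher in tumors. Grhl2, an activator of Cdh1 and of claudin genes, measured 24.3, 40.1, 35.2, 20.8, 39.0 and 11.7 CPM in benign samples 1 to 6 and 92.8, 121, 108, 130, 131 and 105 CPM in tumors 1 to 6. All tumors lay far above all benign samples. Its mean rose from 28.5 ± 11.4 to 115 ± 15.2 CPM (SD, n = 6 per group), a log2 fold change of 2.0 (SE 0.255, adjusted p = 2.31e-05). Grhl1, best known from epidermal junctions, measured 53.4, 81.3, 105, 25.5, 88.0 and 18.1 CPM in benign samples and 244, 187, 170, 203, 118 and 225 CPM in tumors. The groups did not overlap, but tumor 5 at 118 CPM came close to benign sample 3 at 105 CPM. The log2 fold change of Grhl1 was 1.62 (SE 0.381, adjusted p = 0.00275). The third factor, Grhl3, did not pass the filter on low counts.

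The Ovol factors, with the lowest mean CPM of the 10 in both groups, parted from each other. By medians Spdef stood lower than Ovol2 in tumors, at 6.86 against 11.1 CPM. Ovol2 measured 1.85, 3.10, 2.37, 1.07, 5.99 and 0.533 CPM in benign samples and 11.4, 12.7, 8.43, 6.07, 10.7 and 12.7 CPM in tumors. The groups were adjacent, with tumor 4 at 6.07 CPM and benign sample 5 at 5.99 CPM, and benign sample 6 held only 3 counts. Ovol2 rose from 2.49 ± 1.95 to 10.3 ± 2.61 CPM (SD, n = 6 per group), a log2 fold change of 2.02 (SE 0.443, adjusted p = 0.00176). With 6 and 3 counts in benign samples 4 and 6, it passed the filter on low counts partly through its tumor levels. Filtered at 1 count in total instead, its log2 fold change was 2.11 (edgeR, adjusted p = 0.00189). Ovol1 measured 1.67, 2.98, 3.56, 1.07, 5.87 and 0.710 CPM in benign samples and 4.36, 6.19, 4.45, 3.78, 3.71 and 3.07 CPM in tumors. Benign sample 5 lay above all tumors but tumor 2, and the log2 fold change of 0.66 (SE 0.426, adjusted p = 0.207) did not pass the test. Ovol1 rested on 4 to 47 counts per sample, and its call turned on benign sample 5, without which the log2 fold change was 1.05 (adjusted p = 0.0383).

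Both splicing factors were higher in tumors. Esrp1 measured 66.9, 126, 133, 41.9, 142 and 27.2 CPM in benign samples and 361, 326, 335, 379, 163 and 369 CPM in tumors. Of the tumors, 5 lay within 326 to 379 CPM, and tumor 5 at 163 CPM lay just above the highest benign sample. Esrp1 rose from 89.3 ± 50.2 to 322 ± 80.6 CPM (SD, n = 6 per group), a log2 fold change of 1.85 (SE 0.386, adjusted p = 0.00124). Esrp2 measured 25.0, 47.0, 43.3, 21.2, 50.3 and 9.76 CPM in benign samples and 124, 101, 103, 115, 117 and 112 CPM in tumors. It was the most even member among tumors, with the highest tumor 1.23 times the lowest, against 5.15 times among benign samples. The log2 fold change of Esrp2 was 1.77 (SE 0.313, adjusted p = 3.54e-04).

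Among the ETS factors, Ehf and Spdef were higher in tumors and Elf3 was not called. Ehf, the member with the highest level per kilobase, measured 157, 277, 183, 56.3, 252 and 26.3 CPM in benign samples and 280, 770, 464, 771, 371 and 420 CPM in tumors. The groups touched, with tumor 1 at 280 CPM and benign sample 2 at 277 CPM, and the benign samples spanned 10.5 times. Ehf had a log2 fold change of 1.69 (SE 0.493, adjusted p = 0.0104). Elf3 measured 8.89, 12.4, 8.18, 15.1, 19.98 and 8.34 CPM in benign samples and 7.63, 26.1, 16.5, 10.9, 16.0 and 12.6 CPM in tumors. Only tumor 2 exceeded all benign samples, tumor 1 lay below all of them, and the log2 fold change of Elf3 was 0.30 (SE 0.310, adjusted p = 0.434).

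Spdef, an ETS factor of secretory cells, was uneven among tumors. It measured 1.67, 3.10, 2.51, 2.14, 4.99 and 2.13 CPM in benign samples and 35.3, 4.54, 1.93, 9.18, 66.5 and 3.07 CPM in tumors. Tumors 1, 4 and 5 exceeded all benign samples, and tumors 2, 3 and 6 lay within the benign range, so that the highest tumor was 34.5 times the lowest. The log2 fold change of 2.84 (SE 0.816, adjusted p = 0.00962) was the largest among the members, and it is a mean over tumors that differed widely. Leaving out single samples gave log2 fold changes of Spdef from 2.0 (without tumor 5) to 3.14, with adjusted p-values up to 0.0245. Without the 3 benign samples that held skeletal muscle the log2 fold change was 2.62 (adjusted p = 0.0968).

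Klf5 measured 9.45, 12.5, 12.5, 8.91, 24.5 and 14.2 CPM in benign samples and 28.5, 78.3, 52.7, 38.7, 49.9 and 37.6 CPM in tumors. Every tumor exceeded every benign sample, with tumor 1 nearest to benign sample 5. Klf5 rose from 13.7 ± 5.66 to 47.6 ± 17.4 CPM (SD, n = 6 per group), a log2 fold change of 1.79 (SE 0.286, adjusted p = 1.56e-04).

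Levels of different genes were compared as CPM per kilobase of annotated exon. In tumors the means ran from Ehf (92.0) through Esrp1 (51.1), Grhl1 (34.5), Esrp2 (25.8), Grhl2 (13.3), Klf5 (9.16), Spdef (8.72), Elf3 (6.75) and Ovol2 (4.89) to Ovol1 (1.22 CPM per kilobase). Neighbours from Klf5 to Ovol2 in that order differed by less than the larger of their SDs, and the other neighbours by more. In benign tissue the same 4 genes led, at 28.4 for Ehf, 14.2 for Esrp1, 11.2 for Grhl1 and 7.55 CPM per kilobase for Esrp2. Elf3 followed at 5.48 CPM per kilobase, above Grhl2 at 3.31 CPM per kilobase, whereas in tumors Grhl2 stood above Elf3. In benign tissue the gap between neighbours exceeded the larger SD for Elf3 over Grhl2 and for Klf5 over Spdef, and not for the other neighbours.

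Whether related members changed alike was asked with their log2 ratio within each sample, which does not depend on how libraries are scaled (2 counts were added to each library before the ratio). The 4 ratios were compared between groups by exact two-sided permutation tests over all regroupings of the 12 samples into 6 and 6, for which 0.00216 is the smallest p-value possible, with adjustment over the 4 pairs and a threshold of 0.05. The log2 ratio of Ovol1 to Ovol2 was -0.13, -0.05, 0.53, 0.00, -0.03 and 0.29 in benign samples and -1.33, -1.0, -0.88, -0.65, -1.47 and -1.96 in tumors. All tumors lay below all benign samples, and the mean ratio fell by 1.31 on the log2 scale (exact permutation p = 0.00216, adjusted p = 0.00433). In benign tissue the pair was thus near parity in counts, and in tumors Ovol2 exceeded Ovol1 in every sample.

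The log2 ratio of Ehf to Elf3 also shifted. It was 4.10, 4.45, 4.44, 1.88, 3.64 and 1.62 in benign samples and 5.15, 4.87, 4.79, 6.10, 4.51 and 5.03 in tumors. All tumors lay above all benign samples, and the mean ratio was 1.72 higher (exact permutation p = 0.00216, adjusted p = 0.00433). The lowest ratios were those of benign samples 4 and 6, which held skeletal muscle transcripts, as did benign sample 3 at 4.44. Without these 3 samples the difference was 1.01 (exact permutation, adjusted p = 0.0476).

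The other two pairs did not pass the test. The log2 ratio of Grhl1 to Grhl2 was 0.96 ± 0.45 in benign tissue and 0.71 ± 0.52 in tumors (SD, n = 6 per group), a difference of -0.25 (exact permutation, adjusted p = 0.491). The log2 ratio of Esrp1 to Esrp2 was 1.39 ± 0.22 in benign tissue and 1.47 ± 0.49 in tumors, a difference of 0.08 (exact permutation, adjusted p = 0.736). In 5 tumors that ratio lay between 1.54 and 1.72, and in tumor 5 it was 0.47. Without tumor 5 the difference was 0.28 (exact permutation, adjusted p = 0.0144), and without benign sample 4, the lowest of its group at 0.97, it was -0.00321. The same tumor had the lowest log2 ratio of Grhl1 to Grhl2, at -0.15, against 0.63 to 1.39 in the other 5 tumors.

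**Figure D2:**
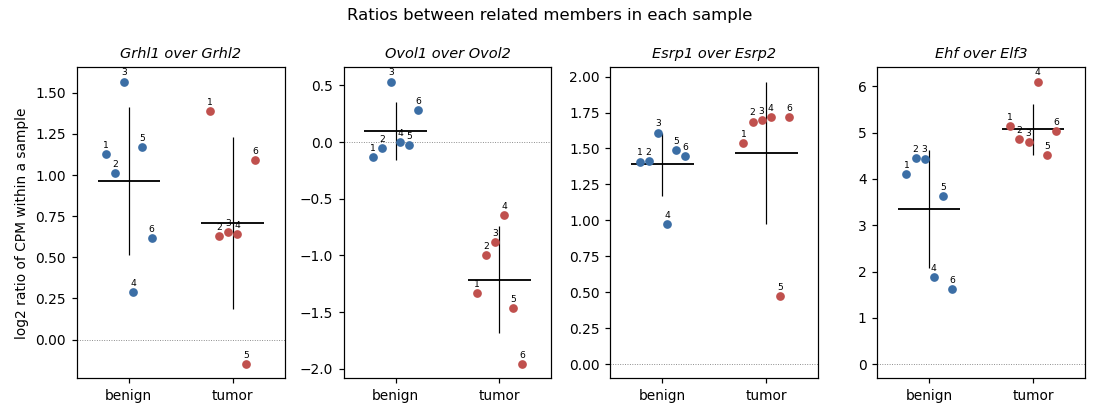
Each panel shows the log2 ratio of CPM of 2 related members within each sample (y axis), with benign samples 1 to 6 in blue, tumors 1 to 6 in red, the line at the mean and the bar covering 1 SD either way. Groups are apart for Ovol1 over Ovol2 and for Ehf over Elf3, and tumor 5 is low for Grhl1 over Grhl2 and for Esrp1 over Esrp2.

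The members' rise was set beside 8 general epithelial genes, which did not move as 1 block. The 4 adhesion genes were higher in tumors, with log2 fold changes of 2.24 for the adhesion molecule gene Epcam (SE 0.243, adjusted p = 5.71e-06), 1.24 for the E-cadherin gene Cdh1, 2.03 for Cldn3 and 1.14 for Cldn7, which encode claudins. Of the 4 keratins of simple epithelia, Krt8 (1.10) and Krt18 (1.44) were higher, and Krt7 (-0.84, adjusted p = 0.357) was not called. Krt19 fell by 4.74 on the log2 scale (SE 0.501, adjusted p = 4.53e-06), from 193 to 555 CPM in benign samples to 4.67 to 33.3 CPM in tumors. The mean log2 CPM of the 4 adhesion genes was 6.75 ± 0.78 in benign tissue and 8.56 ± 0.22 in tumors (SD, n = 6 per group), without overlap and with a difference of 1.81.

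**Figure D3:**
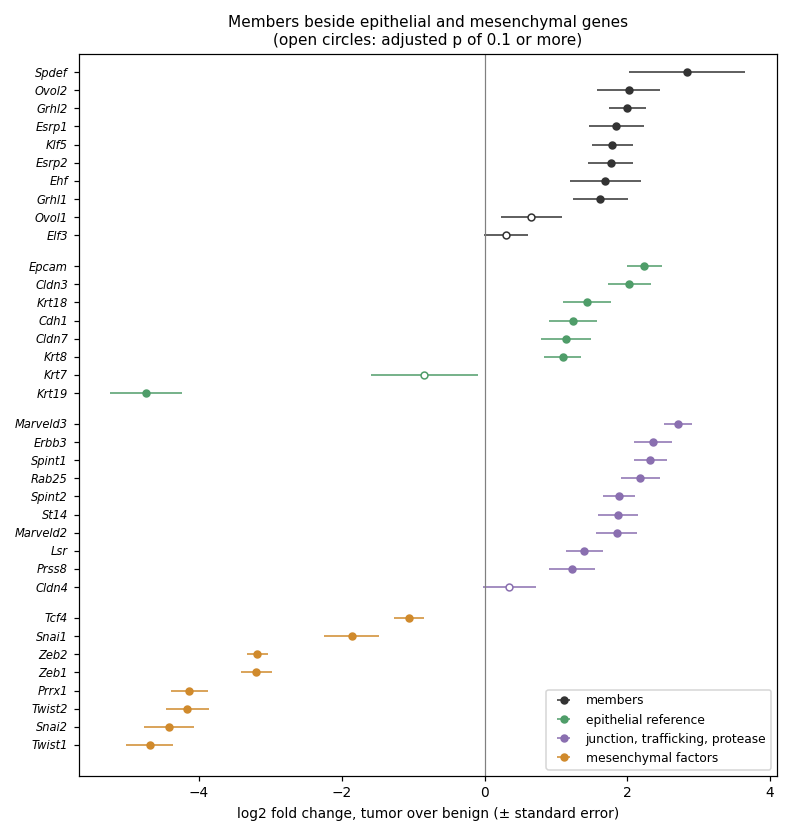
Log2 fold changes in tumors over benign tissue on the TMM scale, with standard errors (x axis), for the 10 members and for the tested genes of 3 lists, with open circles where the adjusted p-value was 0.1 or more. The 8 called members lie between 1.62 and 2.84, near Epcam and Cldn3, all 8 mesenchymal factors lie below 0, and Krt19 lies far from the other epithelial reference genes.

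The libraries were therefore also scaled to these epithelial genes in place of all genes. Scaled to all 8, the same count of members was called higher, 8 of 10 (8.41% of all genes on that scale), and the median of all genes moved to -0.44. Scaled to the 4 keratins, all 10 were called higher (60.5% of all genes), with the median of all genes at 1.25. Scaled to the 4 adhesion genes, 0 of 10 were called higher by edgeR (2.43% of all genes), and 0 of 10 were higher at an unadjusted p-value under 0.05, with the median of all genes at -2.07. On this adhesion scale the log2 fold changes of Grhl1, Grhl2, Ovol2, Esrp1, Esrp2, Ehf and Klf5 lay between -0.15 and 0.52, and that of Spdef was 1.26 (adjusted p = 0.112). For Spdef the difference between the group means of log2 CPM relative to the adhesion genes had the opposite sign, at -0.07, with an SD of 2.15 among tumors and overlapping groups. Ovol1 at -0.89 (adjusted p = 0.0432) and Elf3 at -1.61 (adjusted p = 0.00117) were called lower, as were 90.1% of all genes. Direction and calls of the members thus depended on the epithelial genes taken as the reference, and DESeq2 was not run on these scales. Grhl2 is an activator of Cdh1 and of claudin genes, so the adhesion genes may themselves be controlled by members, which was not tested. The adhesion scale therefore does not show whether the members rose per epithelial cell, and neither do the scales that include Krt19. Krt19 fell by 4.74 on the log2 scale while Krt8 and Krt18 rose. From benign tissue to tumors, the mean log2 CPM of the 4 keratins changed by -1.08 and that of all 8 genes by 0.36, both with overlapping groups. That of the adhesion genes changed by 1.81.

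**Figure D4:**
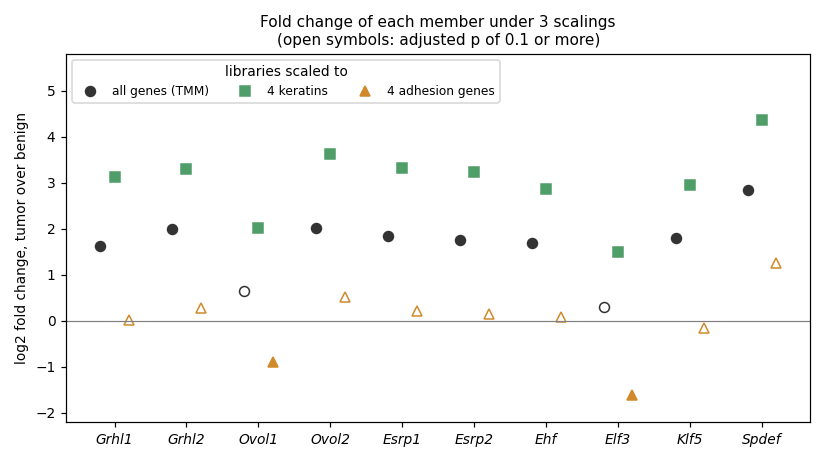
Log2 fold change of each member in tumors over benign tissue (y axis) with libraries scaled to all genes (circles), to 4 keratins (squares) or to 4 adhesion genes (triangles), open where the adjusted p-value was 0.1 or more. The circles of 8 members are filled, all squares are filled, and of the triangles only Ovol1 and Elf3, below 0, are filled.

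**Figure D5:**
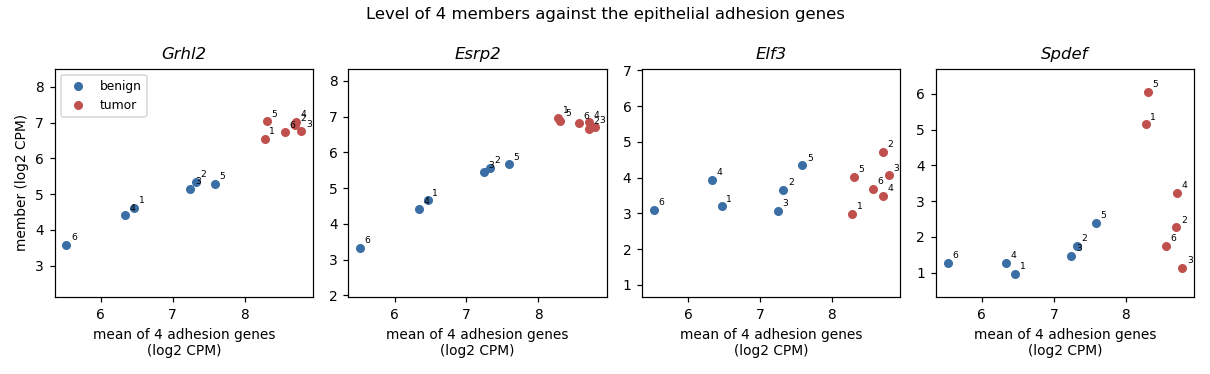
Log2 CPM of Grhl2, Esrp2, Elf3 and Spdef (y axes, each spanning the same number of log2 units) against the mean log2 CPM of Epcam, Cdh1, Cldn3 and Cldn7 (x axis) in benign samples (blue) and tumors (red), numbered by sample. Grhl2 and Esrp2 rise along with the adhesion genes over all samples, Elf3 covers much the same range in both groups, and Spdef spreads among tumors at a like adhesion level.

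Markers of other cell types in the gland moved with the comparison. The 8 basal and myoepithelial markers were all lower in tumors, as were 34.8% of all genes tested. The summed level of the 8 markers was 721 to 1649 CPM in the benign group against 57.2 to 151 CPM in tumors. All 8 adipocyte markers (7864 to 19348 against 11.6 to 113 CPM), all 6 fibroblast markers (2838 to 6986 against 327 to 710 CPM) and all 5 endothelial markers (505 to 937 against 74.8 to 90.2 CPM) were lower as well. None of these markers was at 0 in all samples of a group, and their part in the members' rise was not tested. Without the 3 benign samples that held skeletal muscle, 8 members were still called higher on the TMM scale and 7 on the scale of the 8 epithelial genes, where Ehf was not called (1.03, adjusted p = 0.157).

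The members moved together among benign samples and not among tumors. Over the 6 benign samples, the correlation of log2 CPM between members ranged from 0.167 to 0.998 with a median of 0.787 over the 45 pairs, and none was below 0 (0 pairs). Over the 6 tumors, it ranged from -0.858 to 0.988 with a median of -0.016, and 24 of the 45 pairs were below 0. These are descriptions of 6 samples each, whose points share a library and its scaling. Benign sample 5 was above its group's mean for all 10 members and benign sample 6 below it for 9, and the mean deviation over the members ran from -1.11 in benign sample 6 to 0.95 in benign sample 5, against -0.21 to 0.23 among tumors. The mean log2 CPM of the 4 adhesion genes was likewise highest in benign sample 5 (7.59) and lowest in benign sample 6 (5.52) among benign samples. Its SD was 0.78 among benign samples and 0.22 among tumors, and its part in these correlations was not tested. The pairs most alike among tumors were Elf3 with Klf5 (r = 0.988) and Grhl1 with Esrp1 (r = 0.911), and the least alike was Esrp2 with Elf3 (r = -0.858).

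Among genes with a mean of at least 10 CPM in tumors, those whose deviations from the group means most resembled the members' mean deviation over the 12 samples were the tight junction gene Marveld3 (r = 0.967), Pask (0.962), Efs (0.961), Mastl (0.959) and Plpp2 (0.956). The mean of Marveld3 was 14.9 ± 5.01 CPM in the benign group and 98.1 ± 6.46 CPM in the tumor group (SD, n = 6 per group). Marveld3, Plpp2 (log2 fold change 2.14) and Efs (0.94) were called higher, against 28.2% of all genes tested, and Pask (0.58) and Mastl (0.81) were not. A floor on the tumor mean alone favors genes that are high in tumors. Because the members' mean deviation ran from -1.11 to 0.95 among benign samples and from -0.21 to 0.23 among tumors, these correlations rest mainly on benign samples.

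Relatives of the members in the same gene families were called about as often as genes in general. Of 10 relatives tested, 3 were higher and 3 lower, against 28.2% and 34.8% of all genes, with a median log2 fold change of 0.09. The number higher was 5 without benign sample 1 and 1 without benign sample 4. Tfcp2l1, a relative of the Grainyhead-like factors, was higher (2.86, SE 0.519, adjusted p = 4.31e-04), at 6.24 to 14.5 CPM in benign samples and 13.8 to 127 CPM in tumors. Elf5, the ETS factor of luminal and alveolar cells, was higher by 0.90 (adjusted p = 0.0612). Klf4, a Krüppel-like factor of differentiating epithelium, fell by 2.29 on the log2 scale (adjusted p = 6.05e-05), and the ETS factor Elf4 fell by 2.12 (adjusted p = 0.00119). Klf5 and Klf4 thus had opposite signs, although the difference between them was not tested.

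The mesenchymal transcription factors, several of which act against the members in other systems, were lower. All 8 that could be tested were called lower, against 34.8% of all genes, and for each of the 8 every tumor lay below every benign sample. Foxc2 and Snai3 did not pass the filter on low counts. Twist1 measured 25.0, 27.3, 42.3, 29.0, 47.6 and 38.0 CPM in benign samples and 0.778, 1.10, 1.44, 1.08, 2.81 and 0.768 CPM in tumors, and fell by 4.69 on the log2 scale (SE 0.328, adjusted p = 1.12e-07). Snai2 fell by 4.42 (SE 0.347, adjusted p = 3.05e-07). The 6 fibroblast markers fell by a median of 3.05 on the same scale and these factors by a median of 3.67, and the part of fibroblasts in that fall was not tested.

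Genes around the members' functions were counted in the same way. Of 10 tested genes of epithelial junctions, vesicle trafficking and surface proteases, 9 were higher, against 28.2% of all genes, and 1 was not called. The median log2 fold change of these 10 genes was 1.88, against -0.06 over all genes tested. Marveld3 (2.71) and the receptor gene Erbb3 (2.36) rose most among them, and Cldn4 (0.35, adjusted p = 0.449) was not called. Of 8 genes with exons known to be selected by Esrp proteins, 4 were higher and 2 lower, against 28.2% and 34.8% of all genes, in counts that do not show how their exons were spliced. Enah, a regulator of actin filaments, rose by 2.12 and the hyaluronan receptor gene Cd44 by 1.60, whereas the growth factor receptor gene Fgfr2 fell by 3.74 on the log2 scale (SE 0.373, adjusted p = 2.63e-06) and Slc37a2 fell by 0.58 (adjusted p = 0.0675). Slc37a2 was not called, leaving 1 gene lower, when any 1 of benign samples 1, 2 and 5 and tumors 1, 4, 5 and 6 was left out. Fgfr2 measured 41.3 to 98.0 CPM in benign samples and 1.51 to 9.03 CPM in tumors. Of 8 other splicing regulators, Rbm47 was among 3 that were higher (1.10, adjusted p = 6.01e-04), together with Ptbp2 (0.50), and 3 were lower, with Mbnl1 falling by 1.40 and Qk by 1.18. Both counts are close to the shares of all genes called higher (28.2%) and lower (34.8%). Without benign sample 3 or benign sample 5, 1 was higher.

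Of the secretory genes linked to Spdef in goblet and other mucous cells, the 3 that could be tested were higher, against 28.2% of all genes. Their log2 fold changes were 2.15 for Foxa3, 1.80 for Creb3l4 and 1.22 for Creb3l1. Foxa3 held 3 counts or fewer in 3 benign samples, with 0 in benign sample 4, and in no tumor. It thus passed the filter on low counts mainly through its tumor levels, so the filter partly set the count of genes higher. Without the 3 benign samples that held skeletal muscle 1 of the 3 genes was called. In tumor 5, which had the most Spdef, Creb3l4 measured 40.3 CPM, Foxa3 8.31 CPM and Creb3l1 254 CPM, each the highest of the 12 samples. In tumor 1, which came second for Spdef, Creb3l4 was also second at 11.8 CPM, but Creb3l1 at 67.7 CPM lay within the benign range. Agr2 and Ern2 did not pass the filter on low counts. Ern2 was at 0 in all benign samples and at 0.110 to 2.17 CPM in tumors, highest in tumors 5 and 1.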

How the data were processed

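RNA of 6 tumors and 6 benign samples was compared. Per the labels and the study's methods, poly A RNA was prepared with a directional kit, sequenced as paired reads and quantified with Salmon after Trim Galore, with mm10 named in the submitters' processing notes. The deposited values are estimated counts per gene that the authors gave as whole numbers, not scaled for library size, over 16411 genes with row sums of at least 5. All columns matched a sample (0 unused).

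From these counts, genes were filtered (filterByExpr, minimum count 10, minimum total 15), scaled by TMM and compared in edgeR 4.0.16 (R 4.3.3) by its quasi-likelihood F test (threshold 0.1, as in the study). SE is the log2 fold change over the square root of the F statistic. The common biological coefficient of variation was 0.351. Whether samples are separate mice is stated only for tumors against benign tissue, so p-values measure the spread between these samples. Replicates differed by more than sampling noise (chi-square per degree of freedom at least 13.0).

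Other scales set each library to its mean log2 level of 8, or 4 plus 4, epithelial genes. Log2 ratios used 2 added counts, and exact tests went through all regroupings in Python 3.11.15 with numpy 2.4.6. The correlation of deviations between samples of the same number was at most 0.103 for all 6 numbers, so these do not pair the samples. Exon lengths came from GENCODE M21 and promoters from RefSeq, both of GRCm38.

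The members and lists were chosen with earlier results of these data known. The text names all members, the reference genes, up to 2 called genes in each direction per list, Erbb2 and the 5 genes most like the members among those with a mean of at least 10 CPM in tumors. Other genes and single values named beside these were chosen after their values were seen. Qki is listed in the table as Qk, and Cgn, Ovol3 and Tff3 were not analysed here. Of the listed genes, 1 is not reported here. Alternatives were DESeq2 1.42.0, other scalings and filters, the replicate number as a block, an adjusted p-value under 0.05, other reference genes, 0.5 added counts, each sample left out, and, added after seeing the data, benign samples with over 1% skeletal muscle counts left out.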

Additional observations from a re-analysis of the deposited data

Results flagged for a closer look

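A sample was taken as far from its group when its gap to the nearest other sample exceeded 0.625 of the group's range. Among 28 groups of 6 values examined, 4 met this, and chance would give about 1.4 if the groups were independent. They are not independent, since the ratios are built from the members' values, so these numbers do not show an excess over chance. Esrp1 in tumor 5 was 163 CPM, with the nearest tumor at 326 CPM. The log2 ratio of Esrp1 to Esrp2, which uses the same Esrp1 value, was also lowest in tumor 5, at 0.47, with the nearest tumor at 1.54. In benign tissue this ratio was lowest in sample 4, at 0.97, with the nearest benign sample at 1.41. Klf5 in benign sample 5 was 24.5 CPM, with the nearest benign sample at 14.2 CPM.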

How the results depend on the processing

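With DESeq2, other scalings, the looser filter, a threshold of 0.05, and without the benign samples that held muscle, 8 members were higher and 0 lower. Leaving out single samples gave 8 or 9 higher. With at least 10 counts in every sample, 7 members could be tested and 6 were higher. No other alternative to the scale of all genes changed a member's call than those named for Ovol1, which was higher without benign sample 5 and with the replicate block.

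Relative to the epithelial genes, the choice of reference changed the counts, with 0 higher and 2 lower for the 4 adhesion genes against 8 and 0 for all 8. With the adhesion genes Ovol1 was at -0.89 and Klf5 at -0.15, and with the keratins Elf3 was at 1.49, each opposite in sign to its value with all 8 genes. Elf3 with all 8 was -0.09, and leaving out single samples moved it between -0.178 and 0.0423, above 0 without tumor 3 (0.00813) or tumor 4, and it was 0.0206 without the benign samples that held muscle. The tumor to benign difference of the Esrp1 to Esrp2 log2 ratio was lowest, at -0.00321, when benign sample 4 was left out and highest, at 0.28, when tumor 5 was left out.

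The same-numbered samples came from different mice and did not deviate together, so the number does not pair them. With the replicate block, 9 members were higher on the scale of all genes, Ovol1 among them (0.92, adjusted p = 0.0933 by edgeR), and 7 on the epithelial scale, where Spdef was not called (1.43, adjusted p = 0.152). No block could be used for the ratios, which came from permutation tests. Depth limited Ovol1, Ovol2 and Spdef most, which did not reach 10 counts in every sample. In the other lists the counts moved by over 1.5 times in 21 alternatives. Among these, the mesenchymal factors went from 8 lower of 8 tested to 4 of 4, because fewer had at least 10 counts in every sample. The cause of the other moves was not tested.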

Other observations

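Of the salivary gland markers, 9 were in the table and 3 passed the filter on low counts. The water channel gene Aqp5 measured 17.9 to 44.0 CPM in benign samples and 1479 to 5119 CPM in tumors (log2 fold change 6.92, SE 0.433, edgeR adjusted p = 4.08e-08). Prol1 was listed at 0 in all benign samples and reached 207 CPM in tumor 4, whereas Amy1 was lower in tumors. Keratinized skin markers stayed low, with summed levels of 3.25 to 5.13 CPM in benign samples and 3.89 to 24.1 CPM in tumors, highest in tumor 3. The summed level of the immune markers was highest in benign sample 1, at 1664 CPM, against 304 to 537 CPM in the other benign samples and 201 to 347 CPM in tumors. That of the brown fat markers reached 2939 CPM in benign sample 4.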
